A study of Rattus norvegicus with 9 samples.

Results

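The genes described here hold epithelial cells together, sort proteins to their surface or mark them as epithelium: 38 genes listed by name, the keratins not among them, with earlier results of these arrays known. Of the 38, 36 had a probe set with their symbol on the array, and where a gene had several the brightest on average was used. Grhl2 and Marveld2 were not analysed here, and Cldn1 lay below the filter on low values, so 35 of the 10973 genes tested were members. They were measured in total RNA of uterine tissue from female rats on Affymetrix expression arrays, in 9 arrays of 3 groups. The 3 control arrays (41, 42 and 43) came from rats without treatment. The 3 model arrays (21, 22 and 23) came from an ovulation induction model, in which pregnant horse serum gonadotropin (PMSG, 0.5 U per rat) was injected into the abdominal cavity and HCG, in the same amount, 48 h later. The 3 treatment arrays (31, 32 and 33) came from rats that had electroacupuncture at the points Guanyuan and Sanyinjiao, 15 min a session for 7 days, and then received the same induction while acupuncture went on. The study had 18 rats, 6 per group. The labels do not say whether an array is 1 rat, and they give no strain, age or stage of the oestrous cycle, which in controls was not set by hormones. The p-values therefore measure only the spread between these arrays.

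The lining of the uterus and its glands are a simple epithelium, a single sheet of cells with an apical face towards the lumen. Tight junctions seal the sheet near its apical edge, adherens junctions built on E-cadherin join neighbouring cells below them, and desmosomes tie the cells' keratin filaments together. In the rodent uterus this epithelium responds to ovarian steroids through the cycle and remodels its junctions and apical membrane before an embryo attaches. The tissue also holds stroma, smooth muscle, vessels and blood cells, so an epithelial gene's level in total RNA depends on the mix of cells as well as on each cell.

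Promoters of the members shared a sequence feature that the choice of genes had not used. The letters CACCTG, searched on both strands (so also as CAGGTG), are a form of the E-box that repressors of the Snail and Zeb families can bind in the Cdh1 promoter. They occurred in 20 of 30 promoters of 29 members (66.7%), and Cdh1 itself was not among the 29. A promoter here is the 300 bases from 250 before to 50 after a start in the RefSeq table of build GRCr8. Of all 33469 RefSeq promoters 18.8% held the letters, and of 10204 promoters of the genes tested 17.6% did. The members' promoters were richer in G and C, with a median of 63.9% against 51.7% for all. Among promoters with at least 60% G and C, 15 of 18 of the members (83.3%) and 18.5% of those of the genes tested held the letters. A match is only an occurrence of these letters. The 4 promoters that follow show the range, from 5 matches to none, with each match in capitals and each sequence written 5′ to 3′ on the strand of its gene. They lie at chr10:55188420-55188719 (Cldn7, plus strand), chr8:28132593-28132892 (Ap1m2, minus strand), chr12:27346498-27346797 (Cldn3, minus strand) and chr3:135404017-135404316 (Mall, minus strand).
Cldn7: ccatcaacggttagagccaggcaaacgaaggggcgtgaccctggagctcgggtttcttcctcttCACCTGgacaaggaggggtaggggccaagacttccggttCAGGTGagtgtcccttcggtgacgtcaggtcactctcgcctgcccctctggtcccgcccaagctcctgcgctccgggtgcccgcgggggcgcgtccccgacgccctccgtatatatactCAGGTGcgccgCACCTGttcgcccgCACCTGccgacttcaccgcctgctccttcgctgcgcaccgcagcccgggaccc
Ap1m2: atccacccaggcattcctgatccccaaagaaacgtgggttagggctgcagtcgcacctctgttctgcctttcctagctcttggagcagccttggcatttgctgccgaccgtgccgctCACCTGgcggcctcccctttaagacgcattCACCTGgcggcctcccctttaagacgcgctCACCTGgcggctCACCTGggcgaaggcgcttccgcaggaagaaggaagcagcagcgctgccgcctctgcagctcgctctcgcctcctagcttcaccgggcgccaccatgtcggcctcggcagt
Cldn3: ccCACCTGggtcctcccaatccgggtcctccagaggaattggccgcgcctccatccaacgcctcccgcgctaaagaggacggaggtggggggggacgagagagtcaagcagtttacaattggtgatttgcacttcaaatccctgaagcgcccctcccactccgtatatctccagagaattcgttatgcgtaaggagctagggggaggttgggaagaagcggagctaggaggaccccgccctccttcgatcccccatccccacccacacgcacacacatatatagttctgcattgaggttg
Mall: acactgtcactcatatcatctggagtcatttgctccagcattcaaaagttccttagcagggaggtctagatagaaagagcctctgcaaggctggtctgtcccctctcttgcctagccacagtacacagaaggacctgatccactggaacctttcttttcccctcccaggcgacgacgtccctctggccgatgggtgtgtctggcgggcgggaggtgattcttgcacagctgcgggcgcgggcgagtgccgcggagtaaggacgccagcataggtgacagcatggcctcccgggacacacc
Cldn7 encodes a claudin, and its 5 matches began at -186, -147, -28, -17 and -3 relative to the start. Ap1m2, encoding the epithelial subunit of the AP-1 sorting adaptor, had 4, at -133, -103, -73 and -61. Cldn3 had a single match at -248, and Mall, the member with the smallest p against control, had none. Other motifs were rarer. AACNNGTT, the core of the site that Grainyhead-like factors bind, was found in 4 of the 30 (Tjp1, Rab25, Cgn and Prom1; 13.3%, against 4.23% of all promoters). AACCGGTT was found in 0 members and 0.173% of all, the full oestrogen response element in 0 members and 0.0269% of all, and the ETS core CCGGAAGT in Cldn7 alone (3.33% against 3.81%). Fold changes of members with and without the E-box were set side by side with no test. The 20 tested members with it had a median log2 fold change of -0.75 in model against control and -0.41 in treatment against control. The 7 with a promoter in the table and no match had -0.24 and -0.10.

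Every level below is log2(intensity + 16) of the deposited intensity, and every fold change is on that scale, which understates the change of dim genes. Values of a gene are listed in the order of the array numbers, controls 41, 42 and 43 first. The arrays had closely similar median intensities, 23.56 to 24.02. Control 43 stood apart from controls 41 and 42: across all genes tested its values correlated at 0.972 with model 21, against 0.886 and 0.916 with controls 41 and 42. Over the 35 members its root mean square distance was 0.36 to model 21 and 1.78 and 1.46 to controls 41 and 42. It was below both other controls for 32 of the 35 members (37.1% of all genes tested), and the median difference from their mean was -1.15 over members and 0.02 over all genes. The Actb 3′ to 5′ probe ratio, a rough sign of RNA integrity, was highest in control 43 at 7.84 (5.07 to 7.84 over the arrays), while its Gapdh ratio of 1.30 lay inside the range of 1.10 to 1.39. The part of RNA quality in the results was not tested. Whether its label is right was not tested, so each comparison with control rests on a control array in doubt. Control 43 was kept under its label, and counts of calls in the comparisons with control are given with and without it.

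**Figure D1:**
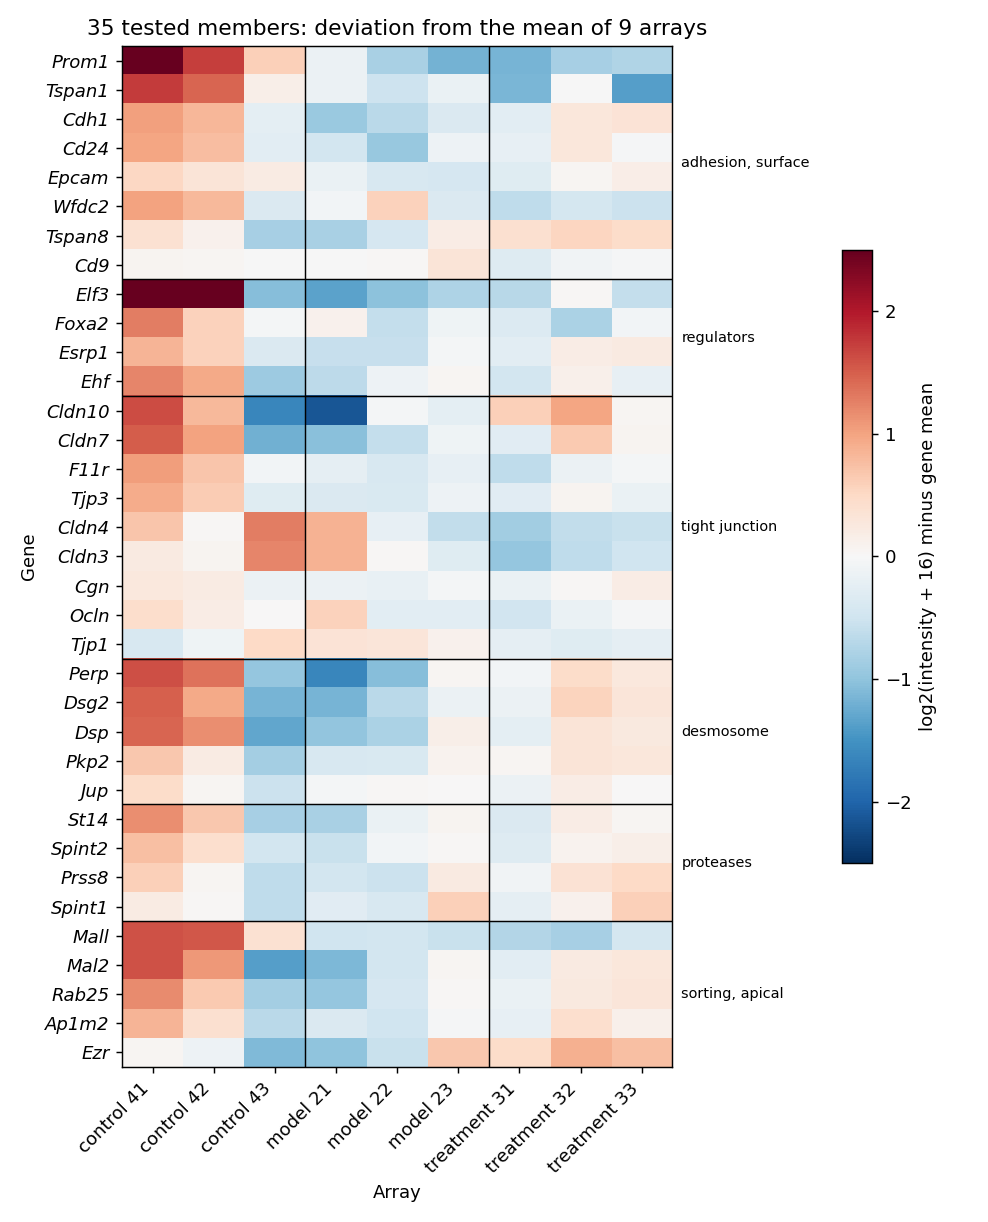
Each row is 1 of the 35 tested members, grouped by role, and each column 1 of the 9 arrays. Colour is the log2(intensity + 16) value minus that gene's mean over the 9 arrays, red above and blue below, and values past the end of the scale take its end colour. Controls 41 and 42 are red in most rows, control 43 and model 21 are blue in most, and Cldn3, Cldn4 and Tjp1 are highest in control 43. Prom1, Mall, Epcam, Tspan1 and, slightly, Ocln are also above their means in control 43.

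In model against control arrays, most members read lower after ovulation induction, but none passed the test. Of 35 members, 30 had a negative log2 fold change and 5 a positive one, and the median was -0.68 against 0.02 for all genes tested. Relative to the mean of the simple keratins Krt7, Krt8, Krt18 and Krt19, however, the members' median turned to 0.89. That of all genes tested rose to 1.585, so the members' median stayed below it. Limma called 0 of 35 at an adjusted p under 0.05, where 0.0182% of all genes were called lower. At an unadjusted p under 0.05 limma had 11 members lower and 0 higher (6.1% of all genes lower, and 699 of the 10973 higher). The 3 model arrays lay below all 3 controls for 6 members, Cdh1, Epcam, Prom1, F11r, Mall and Tspan1, against 6.73% of all genes, and above them for 0, against 7.8%. Without control 43, limma called 20 members lower and 1 higher (6.93% and 5.72% of all genes), with a median of -1.11. The 20 were Cdh1, Epcam, Prom1, Cd24, Tspan1, Elf3, Ehf, Esrp1, Foxa2, Cldn7, Tjp3, F11r, Dsp, Dsg2, Perp, St14, Rab25, Mall, Mal2 and Ap1m2, and the member called higher was Tjp1. Without control 41 limma called 0 and the median was -0.40. With array weights, which let each array count by its fit, limma called 11 members lower (4.51% of all genes) and 0 higher (3.33%). In these bulk samples fewer epithelial cells and less RNA per epithelial cell cannot be told apart.

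In treatment against control arrays, Mall was the member that passed, and it was lower, a call that most fits with an array left out and several other settings did not keep; Prom1 and Tspan1 read low in both induced groups, and Ezr and Tspan8 read higher than in any control. Of 35 members, 28 had a negative and 7 a positive log2 fold change, with a median of -0.35 (-0.04 for all genes). Relative to the keratins the median was 0.30, against 0.62 for all genes. Limma called 1 member lower, against 0.337% of all genes, and at an unadjusted p under 0.05 it had 9 lower and 1 higher, Ezr (10.8% and 6.54% of all genes). The treatment arrays lay below every control for 10 members, against 13.9% of all genes: Epcam, Prom1, Foxa2, Wfdc2, Cldn3, Cldn4, Ocln, Mall, Tspan1 and Cd9. They lay above every control for Tspan8 and Ezr, 2 members, against 9.39% of all genes. Without control 43, limma called 9 members lower and 0 higher (5.08% and 1.49% of all genes), namely Prom1, Elf3, Ehf, Foxa2, Wfdc2, Tjp3, F11r, Mall and Tspan1, and the median was -0.85. Without control 41 the median was -0.06. With array weights limma called 9 members lower (8.22% of all genes), and at an adjusted p under 0.10 it called 2, Mall and Prom1 (0.957%).

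In treatment against model arrays, most members read somewhat higher with electroacupuncture, and none passed. The 9 tight junction genes tested were divided, 5 positive and 4 negative, with a median of 0.001. Of 35 members, 25 had a positive and 10 a negative log2 fold change, with a median of 0.26 (-0.05 for all genes). Relative to the keratins the median was -0.66, against -0.97 for all genes. Without keratin centring, the members' median was 0.14 without model 21, 0.44 without model 23 and 0.42 without treatment 31. Limma called 0 members, and 0% of all genes, at an adjusted p under 0.05. At an unadjusted p under 0.05 it had Tspan8 and Cdh1 higher (2 members, 4.57% of all genes) and Tjp1 and Cldn3 lower (2 members, 10.1%). The groups did not overlap for 5 members that were higher with treatment, Cdh1, Elf3, Cldn10, Dsg2 and Tspan8 (8.11% of all genes), and for 4 that were lower, Wfdc2, Cldn3, Tjp1 and Cd9 (19.9%). Some margins were very small. Dsg2 read 7.262 in model 23 and 7.264 in treatment 31, and Cd9 read 9.343 in model 21 and 9.319 in treatment 33. The 2 comparisons with control share the 3 control arrays, and the comparisons that involve the model or treatment group share those arrays, so their values are not independent of each other. The fit also gives each gene 1 spread estimate for all comparisons, so control arrays enter the SEs and p-values of treatment against model. The mean of the treatment arrays lay between those of model and control for 17 members.

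**Figure D2:**
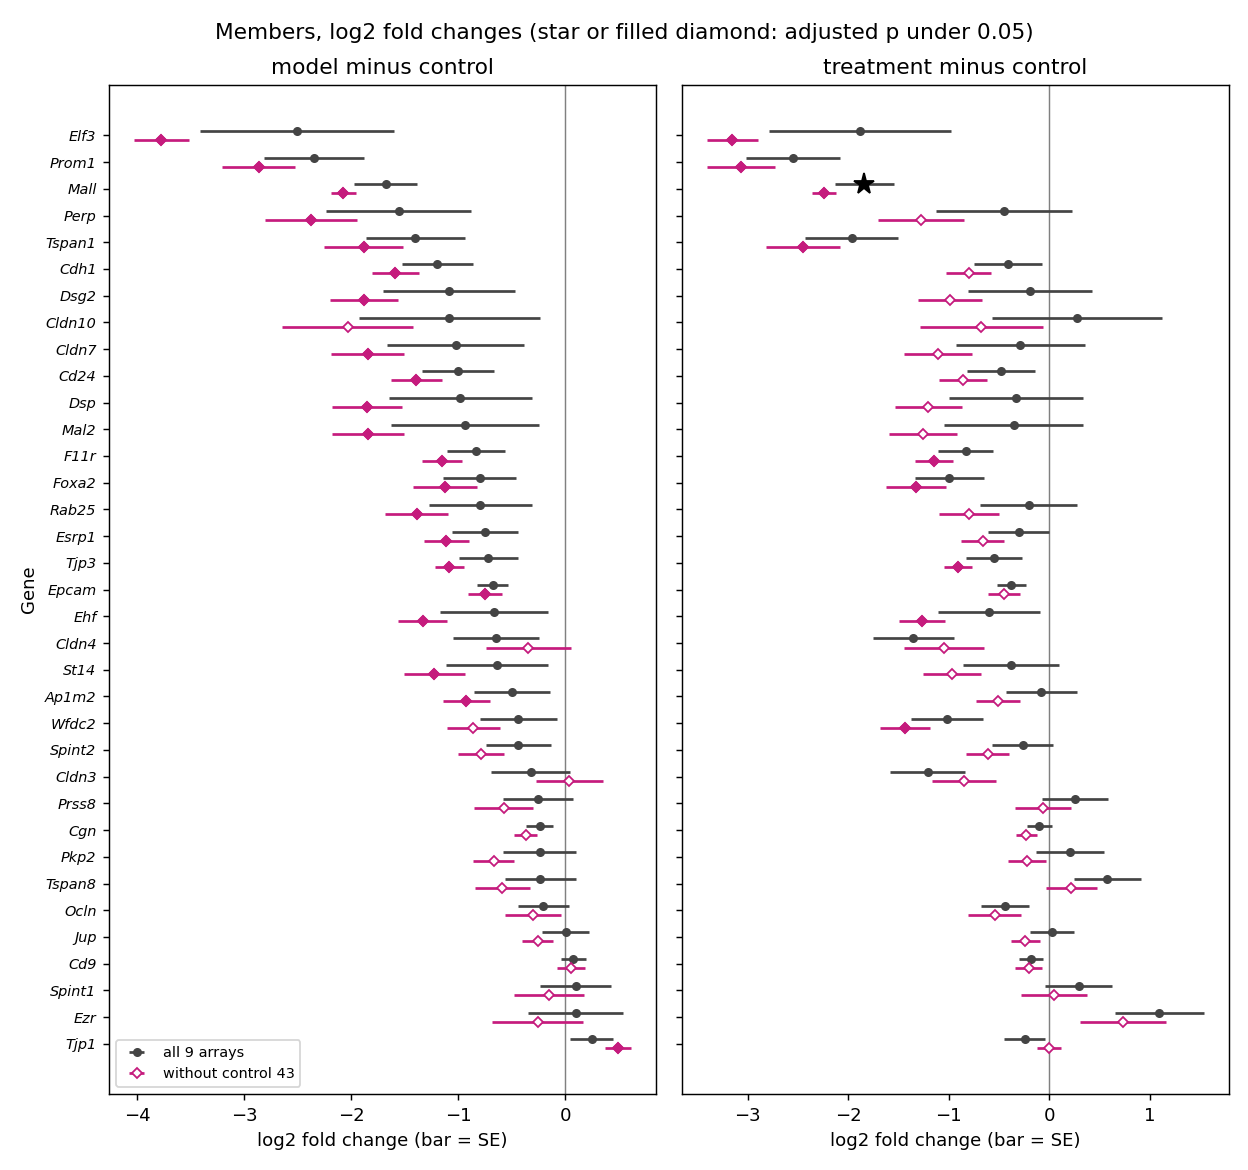
Log2 fold changes of the 35 tested members with bars of 1 standard error, model minus control on the left and treatment minus control on the right, genes ordered by the left panel. Dark circles are the fit to all 9 arrays and pink diamonds the fit without control 43; a star or a filled diamond has an adjusted p under 0.05. All 20 members called lower on the left without control 43 lie further from 0 than in the fit to all arrays. That shift follows from arithmetic, because control 43 read below the mean of the other controls for each of the 20. It is therefore not a separate result.

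Among adhesion and surface proteins, Cdh1 encodes E-cadherin, the core of the epithelial adherens junction. It read 10.37, 10.17 and 9.09 in controls, 8.41, 8.67 and 8.98 in model arrays and 9.08, 9.63 and 9.69 in treatment arrays. All model arrays lay below every control and below every treatment array, while treatment and control arrays overlapped through control 43. The log2 fold change of model against control was -1.19 (SE 0.33; limma adjusted p = 0.265) and that of treatment against model was 0.78 (SE 0.33; limma adjusted p = 0.335). Without control 43, model against control was -1.58 (SE 0.22; limma adjusted p = 0.00815). Cdh1 passed in no other of the 9 fits that left out 1 array. Without control 41 its model against control value was -0.95 (limma adjusted p = 0.675).

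Epcam, an epithelial adhesion molecule of the basolateral membrane, varied less among controls, at 10.69, 10.49 and 10.37. It read 10, 9.77 and 9.75 in model arrays and 9.86, 10.22 and 10.34 in treatment arrays, so controls were the highest group without overlap. Model against control gave -0.68 (SE 0.15; limma adjusted p = 0.176) and treatment against model 0.30 (SE 0.15; limma adjusted p = 0.375).

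Prom1, encoding prominin, a pentaspan glycoprotein of apical protrusions, read 11.70, 10.84 and 9.72 in controls. Model arrays were at 8.98, 8.31 and 7.93 and treatment arrays at 7.95, 8.29 and 8.37. Every control, control 43 included, lay above every induced array, and the model and treatment arrays overlapped. The log2 fold change was -2.34 in model against control (SE 0.47; limma adjusted p = 0.163) and -2.55 in treatment against control (SE 0.47; limma adjusted p = 0.0634). Without control 43 these were -2.86 and -3.07, with limma adjusted p-values of 0.00488 and 0.00412. Prom1 passed in no other of the 9 fits that left out 1 array. Without control 41 the values were -1.87 and -2.08, with limma adjusted p-values of 0.381 and 0.135.

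The tetraspanins, a family of membrane organisers, went separate ways. Tspan1 read 10.78, 10.48 and 9.18 in controls, 8.88, 8.51 and 8.85 in model arrays and 7.88, 9.02 and 7.65 in treatment arrays. All controls were above all induced arrays, with a log2 fold change of -1.40 in model (SE 0.46; limma adjusted p = 0.324) and -1.96 in treatment arrays (SE 0.46; limma adjusted p = 0.118). Tspan8 read 11.75, 11.49 and 10.55 in controls, 10.56, 10.96 and 11.57 in model arrays and 11.77, 11.92 and 11.83 in treatment arrays. Treatment arrays were above all others, by little over control 41, and treatment against model was 0.81 (SE 0.33; limma adjusted p = 0.324). Cd9, another tetraspanin that many cell types express, was nearly flat, at 9.34 to 9.42 in controls, 9.34 to 9.68 in model and 9.03 to 9.32 in treatment arrays. Treatment against model was -0.26 for Cd9 (SE 0.12; limma adjusted p = 0.357), or -0.15 without model 23.

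Cd24, a small sialoglycoprotein of epithelial and some blood cells, read 12.11, 11.89 and 10.85 in controls, 10.66, 10.18 and 10.99 in model arrays and 10.91, 11.41 and 11.09 in treatment arrays. Control 43 lay among the induced arrays, and model against control was -1.004 (SE 0.34; limma adjusted p = 0.329). Wfdc2, a secreted protein of glandular epithelium, read 8.56, 8.36 and 7.20 in controls, 7.48, 8.14 and 7.19 in model arrays and 6.93, 7.12 and 7.02 in treatment arrays. Treatment arrays were the lowest group without overlap, and treatment against control was -1.02 (SE 0.36; limma adjusted p = 0.222).

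**Figure D3:**
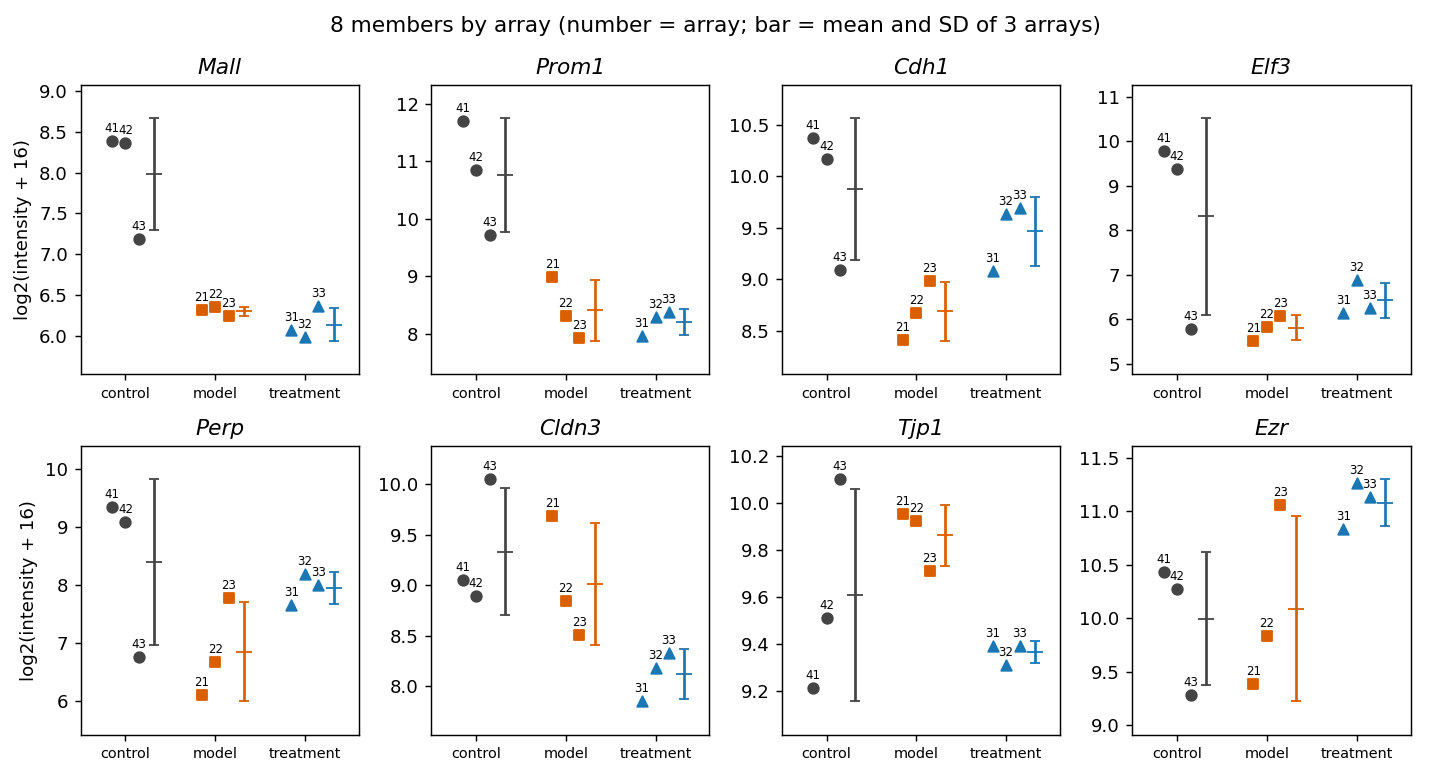
Levels of 8 members, picked after their values were seen to show the different patterns, as log2(intensity + 16) with a separate vertical scale for each gene. Points are single arrays with their numbers, and the bars give the mean and SD of the 3 arrays of a group. Mall and Prom1 are low in all 6 induced arrays; control 43 sits with the induced arrays for Elf3 and Perp and is the highest array for Cldn3 and Tjp1.

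Among the regulators, Elf3 had the widest range of any member, 4.27 over the 9 arrays. It encodes an ETS transcription factor confined largely to epithelia. Elf3 read 9.79 and 9.37 in controls 41 and 42 but 5.78 in control 43, with 5.52, 5.83 and 6.08 in model arrays and 6.15, 6.88 and 6.26 in treatment arrays. Controls 41 and 42 stood far above the other 7 arrays, and treatment arrays were above all model arrays. The SD of controls was 2.20, and model against control was -2.504 (SE 0.90; limma adjusted p = 0.347), or -3.77 without control 43 (SE 0.26; limma adjusted p = 0.000412). Elf3 passed in no other of the 9 fits that left out 1 array. Without control 41 its log2 fold change was -1.77 (limma adjusted p = 0.856).

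Ehf, a related ETS factor, read 6.72, 6.45 and 4.59 in controls and 4.84 to 5.62 in the 6 induced arrays. Esrp1, a splicing factor that keeps epithelial isoforms, read 8.32, 8.04 and 7.11 in controls, 6.89 to 7.42 in model and 7.21 to 7.69 in treatment arrays. Controls 41 and 42 were above all induced arrays for both genes, and control 43 was below all of them for Ehf. Foxa2, a forkhead factor needed for uterine glands, read 7.90, 7.20 and 6.57 in controls, 6.74, 6.03 and 6.51 in model arrays and 6.29, 5.83 and 6.56 in treatment arrays. The lowest control was just above the highest treatment array, and treatment against control was -0.996 (SE 0.34; limma adjusted p = 0.213), or -0.66 without control 41. The fifth regulator, Grhl2, was not analysed here.

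Tight junction genes did not share a single pattern. Cldn7 read 9.65, 9.15 and 6.94 in controls, 7.09, 7.55 and 8.04 in model arrays and 7.86, 8.80 and 8.22 in treatment arrays. Cldn10, a claudin that can form ion-selective pores, read 8.62, 7.81 and 5.36 in controls, 4.86, 6.94 and 6.75 in model arrays and 7.6, 7.99 and 7.04 in treatment arrays. Both were high in controls 41 and 42 and low in control 43 and model 21. For Cldn10 all treatment arrays were above all model arrays and 1 was above control 42. F11r, the junctional adhesion molecule A, read 9.37, 9.03 and 8.25 in controls, 7.93 to 8.12 in model and 7.70 to 8.27 in treatment arrays. For F11r all model arrays were below the controls and treatment 33 overlapped control 43, and the log2 fold change was -0.83 in both comparisons with control (SE 0.27; limma adjusted p = 0.316 for model and 0.195 for treatment). Without control 43 F11r was -1.15 in each, with limma adjusted p-values of 0.0124 and 0.0129. F11r passed in no other of the 9 fits that left out 1 array. Without control 41 its model against control value was -0.59 (limma adjusted p = 0.789).

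Cldn3 and Cldn4, sealing claudins whose genes are neighbours with 0 protein-coding genes between them in the RefSeq table, went against this. Cldn3 read 9.05, 8.89 and 10.05 in controls, 9.68, 8.84 and 8.51 in model arrays and 7.85, 8.18 and 8.33 in treatment arrays. Cldn4 read 6.64, 5.99 and 7.23 in controls, 6.83, 5.74 and 5.34 in model arrays and 5.08, 5.33 and 5.39 in treatment arrays. Control 43 was the highest array for both, model 21 the next, and all treatment arrays were below all controls. Treatment against control was -1.21 for Cldn3 (SE 0.37; limma adjusted p = 0.173) and -1.35 for Cldn4 (SE 0.40; limma adjusted p = 0.171). Treatment against model was -0.89 for Cldn3 (SE 0.37; limma adjusted p = 0.327) and -0.70 for Cldn4 (SE 0.40; limma adjusted p = 0.425). Without model 21 these were -0.55 and -0.28.

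Tjp1 encodes ZO-1, a scaffold under the tight junction that many other cell types express. It read 9.21, 9.51 and 10.10 in controls, 9.95, 9.92 and 9.71 in model arrays and 9.39, 9.31 and 9.39 in treatment arrays. It was the only member lowest in control 41, and all treatment arrays were below all model arrays, with a log2 fold change of -0.50 (SE 0.20; limma adjusted p = 0.324). Its epithelial relative Tjp3 (ZO-3) had the opposite order in controls, at 6.10, 5.80 and 4.86, with 4.78 to 5.24 in induced arrays. Tjp3 was dim, below the filter threshold of its own array in 4 of the 9. Ocln, encoding occludin, read 7.18 to 7.61 in controls, 6.89 to 7.73 in model and 6.68 to 7.13 in treatment arrays. A dimmer Ocln probe set that was not used read 6.064, 6.055 and 5.689 in controls and 5.442 to 5.736 in treatment arrays. There treatment arrays overlapped control 43, and controls 41 and 42 were above all induced arrays. Cgn, encoding the scaffold cingulin, stayed within 5.33 to 5.78 over all arrays. Cldn1 was dim, at 4.71 to 4.93, below the threshold of its own array in all 9.

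Desmosomal genes had no member whose model or treatment arrays lay apart from all controls. Dsp, the plakin that links desmosomes to keratin, read 9.33, 9.04 and 6.57 in controls, 6.90, 7.08 and 8.03 in model arrays and 7.63, 8.20 and 8.12 in treatment arrays. Dsg2, a desmosomal cadherin, read 8.90, 8.37 and 6.25, then 6.26, 6.75 and 7.26, then 7.26, 7.97 and 7.72. Perp, a desmosome-associated membrane protein, read 9.35, 9.09 and 6.76, then 6.10, 6.67 and 7.78, then 7.66, 8.19 and 8.0. In all 3 genes controls 41 and 42 were above the 6 induced arrays and control 43 was near models 21 and 22. Pkp2, a plaque protein, read 6.91, 6.45 and 5.40 in controls and 5.85 to 6.57 in induced arrays. Jup, encoding plakoglobin of both desmosomes and adherens junctions, read 6.93 to 7.93 in controls, 7.42 to 7.50 in model and 7.32 to 7.65 in treatment arrays.

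The membrane-bound proteases and their inhibitors differed less. St14, encoding matriptase, read 8.55, 8.07 and 6.55 in controls, 6.58 to 7.46 in model and 7.02 to 7.58 in treatment arrays. Prss8, encoding prostasin, which works with matriptase, read 7.14, 6.59 and 5.91 in controls, 6.01 to 6.77 in model and 6.46 to 7.04 in treatment arrays. Their inhibitor Spint2 read 9.68, 9.34 and 8.46 in controls and 8.37 to 9.07 in induced arrays, and Spint1 read 7.32, 7.15 and 6.49 in controls and 6.71 to 7.71 in induced arrays. Control 43 was the lowest of the 9 arrays for St14, Prss8 and Spint1. All 4 genes had a higher mean in treatment than in model arrays, by 0.17 to 0.51. In the main fit to all arrays limma called none of them, but without control 43 St14 was called lower in model against control.

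Genes of sorting and the apical membrane held both Mall, the member that passed, and Ezr, the member with the highest log2 fold change against control. Mall, a MAL-family proteolipid of membrane rafts, had intensities of 318.6, 312.7 and 129.8 in controls, 63.6, 65.8 and 59.6 in model arrays and 51.3, 47.1 and 66.2 in treatment arrays. On the log2 scale these were 8.39, 8.36 and 7.19, then 6.31, 6.35 and 6.24, then 6.07, 5.98 and 6.36. All controls were above all induced arrays, control 43 at the lesser distance, and model and treatment arrays overlapped. The log2 fold change was -1.84 in treatment against control (SE 0.29; limma adjusted p = 0.0429) and -1.68 in model against control (SE 0.29; limma adjusted p = 0.14). Of the 9 fits that left out 1 array, Mall passed in treatment against control only without control 43 (-2.24, limma adjusted p = 0.000153). The adjusted p was 0.131 without control 41, 0.122 without control 42, 0.0733, 0.0834 and 0.0525 without models 21, 22 and 23, and 0.182, 0.142 and 0.118 without treatments 31, 32 and 33. With all arrays of the fit kept, it was 0.0626 with 64 added before log2, 0.0529 after quantile normalization, 0.0513 with no filter, 0.868 with keratin centring and 0.0939 with the replicate block. With the 6 compared arrays alone it was 0.103.

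Ezr encodes ezrin, which links apical microvilli to actin. It read 10.43, 10.27 and 9.28 in controls, 9.38, 9.83 and 11.06 in model arrays and 10.84, 11.27 and 11.14 in treatment arrays. Treatment arrays were above all controls and above models 21 and 22, while model 23 lay among them. Treatment against model was 0.99 (SE 0.44; limma adjusted p = 0.348), or 0.64 without model 21. Mal2, a proteolipid of apical transcytosis, read 8.13, 7.63 and 5.17 in controls and 5.43 to 6.83 in induced arrays. Rab25, a small GTPase of apical recycling, read 8.49, 7.97 and 6.45 in controls and 6.34 to 7.61 in induced arrays. Ap1m2 read 7.43, 6.99 and 5.91 in controls, 6.10 to 6.55 in model and 6.38 to 7.01 in treatment arrays. For Mal2 and Ap1m2 control 43 was the lowest array of all, and for Rab25 it lay within the model arrays.

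Across the arrays most members kept a common order. Control 41 was the highest array for 27 of 35 members, control 42 for 0 and control 43 for Cldn3, Cldn4 and Tjp1. Controls 41 and 42 were both above all 6 induced arrays for 22 members (15% of all genes tested) and both below them for 0 (11.2%). Control 43 lay within the induced arrays' range for 15 members (65.3% of all genes), below it for 13 and above it for 7. The mean deviation of the members from their own means was 0.99, 0.65 and -0.42 in controls, -0.48, -0.39 and -0.10 in model arrays and -0.32, 0.08 and -0.01 in treatment arrays. The median Pearson correlation over the 595 pairs of members was 0.62 across the 9 arrays, with 499 pairs positive, against 0.02 for all pairs of genes tested. Pairs share arrays and depend on controls 41 and 42, and this is a description. Control arrays were the most spread, with a pooled SD of the members of 0.953 (0.358 over all genes). It was 0.477 (0.251) in model arrays and 0.301 (0.187) in treatment arrays.

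A few members departed from the common order. Prom1, Mall, Tspan1 and Foxa2 correlated with the mean of the other members at 0.73 to 0.75 over the 9 arrays but at -0.31 to -0.03 over the 6 induced arrays, where the values of Mall and Prom1 were all low. Wfdc2 gave 0.62 and -0.52. Cldn3 and Cldn4 gave -0.16 and -0.002 over 9 arrays, and Tjp1 gave -0.71. Esrp1 (0.97 and 0.93), Tjp3 (0.98 and 0.89) and Cgn (0.93 and 0.87) stayed close to the others in both sets of arrays. These values are descriptions over arrays that share groups.

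The keratins of simple epithelium, which were not members, had the same order with a wider range. Their mean deviation was 2.14, 1.74 and -1.66 in controls, -1.75, -0.76 and 0.03 in model arrays and -0.41, 0.35 and 0.32 in treatment arrays. All 4 were negative in model against control, with a median of -1.71, and positive in treatment against model, with a median of 0.94, and limma called 0 of 4 in any comparison (4 lower in model and 1 lower in treatment against control without control 43). Krt19 read 12.01, 11.58 and 7.48 in controls, 7.23, 8.57 and 8.72 in model arrays and 8.07, 9.29 and 8.71 in treatment arrays. Krt8 read 7.96 in control 43 and 12.02 and 11.56 in the other controls, and Krt7 (6.98) and Krt18 (7.42) were likewise low there. In treatment against control the keratins' median was -0.52. These shifts were larger than those of the members, so centring each array on the keratins turned the sign of the members' medians. It moved the medians of all genes tested in the same directions.

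**Figure D4:**
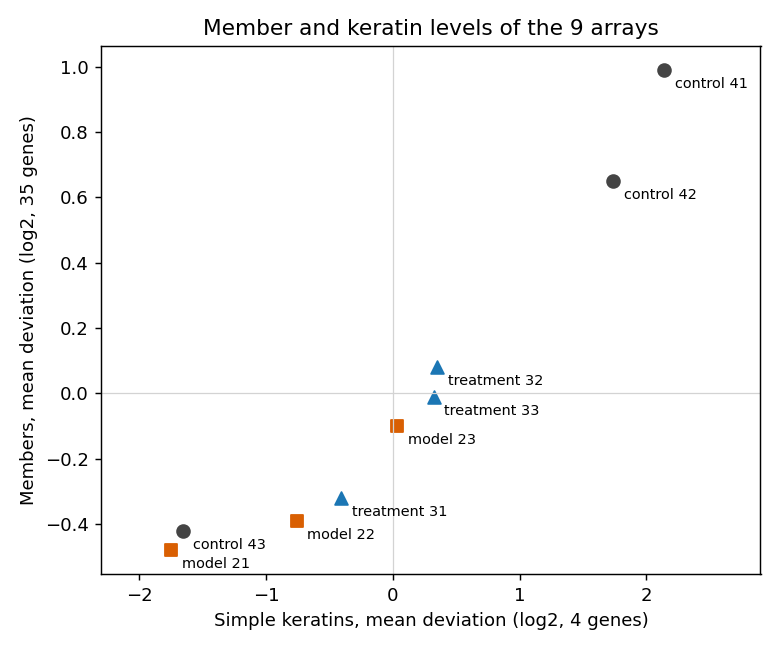
The mean log2 deviation of the 35 tested members (vertical) against that of Krt7, Krt8, Krt18 and Krt19 (horizontal) in each of the 9 arrays, with circles for control, squares for model and triangles for treatment. Controls 41 and 42 are at the upper right, at 0.99 and 0.65 on the vertical axis, and control 43 and model 21 are together at the lower left, at -0.42 and -0.48.

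Other genes of junctions and of epithelial identity, listed beside the members, had medians closer to those of all genes, but single junction genes differed. Dsc2 read 8.77, 7.67 and 4.84 in controls, 5.16 to 6.57 in model and 6.03 to 6.89 in treatment arrays. Lsr read 7.63, 7.25 and 6.48 in controls, 6.39 to 6.82 in model and 6.61 to 7.0 in treatment arrays. For these genes controls 41 and 42 were above all induced arrays, as for many members. Cldn5 and Jam2 went the other way and were highest in control 43. Of 37 other junction genes 29 were tested and limma called 0 in any comparison, with 16 negative and 13 positive in model against control (median -0.07), 21 and 8 in treatment against control (-0.10) and 15 and 14 in treatment against model (-0.01). At an unadjusted p under 0.05 limma had 3 lower and 1 higher, 2 and 1, and 2 and 2 of them. Without control 43 limma called 4 lower and 2 higher in model against control and 1 lower and 1 higher in treatment against control. Those with the smallest p were Afdn, the afadin of adherens junctions (treatment against control -0.52, limma adjusted p = 0.0727), Pard3, a polarity scaffold (treatment against model -0.44, limma adjusted p = 0.285), Evpl, envoplakin (model against control 0.56, limma adjusted p = 0.265), and Ctnnd1, p120 catenin (model against control -0.31, limma adjusted p = 0.33). Of 15 other epithelial transcription and splicing regulators 5 were tested and 0 called, with or without control 43, with medians of -0.07, -0.31 and -0.06 in the same order. Pax8, a factor of the reproductive tract epithelium, read 7.55, 7.34 and 7.15 in controls, 7.88, 7.58 and 8.78 in model arrays and 8.22, 8.77 and 8.72 in treatment arrays. All its induced arrays were above all controls, and treatment against control was 1.23 (SE 0.30; limma adjusted p = 0.123). Sox17 read 8.52, 8.40 and 9.48 in controls, 9.04, 8.22 and 7.90 in model arrays and 7.66 to 7.88 in treatment arrays, highest in control 43 and then model 21 as for Cldn3 and Cldn4. Tfcp2l1 was also highest in control 43, at 8.21 against 6.53 to 7.16 elsewhere, and Emx2 read 7.14 to 7.74.

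Genes of mesenchymal transition were called in no comparison either, with or without control 43 (11 of 12 tested). In model against control 9 of 11 were positive, with a median of 0.18, in treatment against control 7 were negative (-0.09), and in treatment against model all 11 were negative (-0.26). At an unadjusted p under 0.05 limma had 1 higher in model against control and 1 lower in treatment against model. Cdh2, encoding N-cadherin, had 0.61 in model against control (limma adjusted p = 0.391). In treatment against model, Twist1 had -0.57 (limma adjusted p = 0.358) and Cdh11 -0.47 (limma adjusted p = 0.306). S100a4 had -0.92 in treatment against control (limma adjusted p = 0.299).

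Markers of other cell types also differed between arrays, and limma called 0 of them in any comparison with all arrays. Without control 43 it called, all higher in model against control, 2 smooth muscle, 2 mesothelial, 1 endothelial and 1 adipocyte gene, and in treatment against control 1 smooth muscle gene, also higher. The summed intensity of 9 smooth muscle genes was 13500 to 21700 in controls, 21400 to 25400 in model and 20600 to 25300 in treatment arrays, lowest in control 41, and all 9 had positive fold changes against control in both induced groups (medians 0.47 and 0.42). Des (0.72 and 0.83), Lmod1 (0.88 and 0.50), Smtn (0.86 and 0.68) and Tagln (0.47 and 0.42) had the smallest p-values in any comparison. The sum of 7 stromal genes, Dcn, Col3a1, Pdgfra and Dpt among them, was 6530 to 13100 in controls, 9340 to 12300 in model and 6770 to 11400 in treatment arrays, with 6527 in control 41 and 13070 in control 43, and all 7 were positive in model against control. Endothelial genes (Tek, Vwf, Emcn and Cldn5 among 6 tested of 7) summed to 562.8 and 577.6 in controls 41 and 42 and 1203 in control 43, against 888.8 to 1045 in model and 320.9 to 869.3 in treatment arrays, and all 6 were negative in treatment against model. The mesothelial list (5 of 6 tested) summed to 309 to 720 in controls, 475 to 947 in model and 427 to 622 in treatment arrays, with Msln, Gpm6a, Wt1 and Lrrn4 all positive in model against control.

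Leukocyte genes (5 of 7 tested) summed to 476 to 1070 in controls, 429 to 1730 in model and 315 to 626 in treatment arrays, with Cd74, Ptprc, Csf1r and Cd3e all highest in model 22. Platelet and granulocyte genes (5 of 6 tested), whose cells share Cd9 or Cd24, summed to 100.3 to 130.2 in controls, 103.6 to 272.7 in model and 118 to 142.8 in treatment arrays, with S100a8 and Pf4 highest in model 22. Erythroid genes (2 of 4 tested), with Hbb at 7.74 to 9.97 and Alas2 at 4.94 to 5.63, summed to 227.9 to 582.1, 447.2 to 719.8 and 278.1 to 1036. Adipocyte genes (3 of 5 tested) summed to 524.3 and 435.7 in controls 41 and 42 and 72.6 in control 43, against 206.7 to 272.5 in model and 133.4 to 250.7 in treatment arrays. Adipoq read 8.88 and 8.62 in controls 41 and 42 and 4.97 in control 43, while Cfd and Fabp4 were higher in the model arrays on average. Markers of stratified epithelium (2 of 8 tested, Krt14 and Krt13) summed to only 67.4 to 99.5, 61.8 to 90.9 and 72.6 to 79.9, and those of ciliated oviduct epithelium (1 of 7 tested, Tekt1) to 39.1 to 47.9 in controls, 39.5 to 40.2 in model and 39.7 to 40.7 in treatment arrays. No marker with a probe set had an intensity of 0, and the part of these cell types in the members' results was not tested.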

How the data were processed

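Total RNA of rat uterine tissue was hybridised to 9 Affymetrix arrays, 3 per group. The authors deposited 1 normalized intensity per probe set and array on a linear scale; MAS5 is named in the submitters' processing notes, and for its settings and scaling, the sources used here are silent. There were 31099 probe sets, 57 of them controls. Of the rest 20826 had 1 symbol in GEO's platform annotation, 436 several and 9780 none, and the symbols of 20758 were matched to RefSeq. The number of arrays limits the precision; the background level is unknown.

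From the deposited intensity, log2(intensity + 16) was computed. Probe sets at or above the 40th percentile of their array in at least 3 of the 9 arrays were kept (19326), and the kept probe set with the highest mean and a single symbol stood for its gene. In R 4.3.3, limma 3.58.1 fitted all 9 arrays together (lmFit, then trended eBayes; two-sided tests with 6 residual degrees of freedom), with Benjamini-Hochberg adjusted p-values over all 10973 genes of a comparison and a threshold of 0.05. The fit was tested on simulated data. Python 3.11.15 and matplotlib 3.10.9 made the figures. Summed marker levels are sums of intensities over a list's genes with a probe set.

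The members and gene lists were chosen with earlier results of these data known. Tests are printed for members that passed and the 8 with the smallest p per comparison, and for up to 4 genes of each other list; the genes most like the members are the 10 with the highest and 5 with the lowest correlation to their mean standardized level, and symbols that only number a locus were passed over. Alternatives changed the added constant, scaling, filter, variance model, array weights, arrays fitted, probe set rule, replicate block and threshold, or left out each array. Promoter sequences are RefSeq's (GRCr8), and 29 members had 1 or more.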

Additional observations from a re-analysis of the deposited data

How the results depend on the processing

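Of 528 values of named members under the alternatives, 480 kept direction and side of the threshold, 26 moved past it, 14 (Mall in treatment against control) lost it and 8 reversed. Only Mall in treatment against control passed in the main fit, so keeping the side mostly meant still not passing. Some alternatives, such as another variance model, cannot change a fold change. The 480 is therefore no measure of robustness. All reversals came from centring each array on the keratins. Medians over members were then 0.89 (model against control), 0.30 (treatment against control) and -0.66 (treatment against model). Over all genes tested that centring gave 1.585, 0.619 and -0.967 in the same order. It gave, in model against control, Epcam 0.89, Cdh1 0.38, F11r 0.74, Tspan1 0.17 and Cd24 0.56, and in treatment against model, Tspan8 -0.10, Cdh1 -0.13 and Epcam -0.62. Members called in model against control numbered 11 with array weights (4.51% of all genes lower) and 0 to 21 when single arrays were left out, 21 without control 43 (6.93% of all genes lower, 5.72% higher) and 0 in the other fits. In treatment against control limma called 9 members with array weights (8.22% of all genes lower) and 2 at an adjusted p under 0.10 (0.957%). It called 0 with 64 added, with quantile normalization, with keratin centring, with no filter, with the 6 compared arrays alone and with the replicate block, and 0 to 9 when single arrays were left out (9 without control 43, 5.08% of all genes lower, and 0 in the others), where the median ran from -0.848 to -0.057. The replicate block took the last digit of the array number, and these numbers share only a digit. Deviations of arrays with the same digit correlated at -0.41 to 0.31, and those of arrays of different groups with different digits at -0.39 to 0.45. With the replicate block Mall had a limma adjusted p of 0.0939 in treatment against control. The cause of these changes was not tested. The spread among controls, a pooled SD of 0.953 over the members, limits both comparisons with control. Each gene had 1 spread estimate from all 9 arrays, so the control spread also enters the SEs and p-values of treatment against model.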

Other observations

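The genes outside the list whose levels were most like the members' mean standardized level, over the 9 arrays, were led by Muc1, the apical mucin of the uterine lining, with a Pearson correlation of 0.986. Muc1 read 7.79, 7.08 and 5.21 in controls, 5.67, 5.65 and 6.19 in model arrays and 5.56, 6.20 and 6.22 in treatment arrays. It was highest in controls 41 and 42 and lowest in control 43. Next came Agps, an enzyme of ether lipid synthesis (0.986), the transcription factor Stat5b (0.985), Cyb561d1 (0.985), Rbm43 (0.984), Cdc42se1 (0.982), Arfgef2 (0.982), Stap2 (0.981), Scarb2, a lysosomal membrane protein (0.98), and Chpt1, an enzyme of phosphatidylcholine synthesis (0.98). In this ranking 2 numbered loci were passed over. Agps (4.97 to 5.61), Stat5b (4.91 to 5.73) and Arfgef2 (4.82 to 5.45) were dim, with low ends near the arrays' filter thresholds of 4.96 to 5.01. Scarb2 read 8.39, 8.08 and 6.40 in controls, 6.49 to 6.80 in model and 6.72 to 7.23 in treatment arrays.

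The genes least like the members were Tsc22d1 (-0.976), Gabbr1 (-0.967), Jcad, an endothelial junction protein (-0.961), Zfp280d (-0.96) and Fgfr2, a fibroblast growth factor receptor (-0.96). Fgfr2 read 7.03, 7.42 and 7.95 in controls, 8.0, 8.10 and 7.88 in model arrays and 7.82, 7.70 and 7.64 in treatment arrays, lowest in controls 41 and 42. These genes were chosen for their correlation among 10973, so the values are descriptions without a test.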
